A study of Mus musculus with 12 samples.

Results

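The miR-17-92 cluster is a polycistron, a single primary RNA from which several microRNAs (miRNAs) are cut, and 7 of its mature products were followed here in injured mouse liver. They are mmu-miR-17-5p, mmu-miR-17-3p, mmu-miR-18a-5p, mmu-miR-19a-3p, mmu-miR-20a-5p, mmu-miR-19b-3p and mmu-miR-92a-3p (the prefix, for mouse, is left out from here on), taken by name from a table of 1929 mature miRNAs, and all 7 passed the filter on low counts that left 607 miRNAs for testing. Small RNA was sequenced from liver tissue of 12 C57BL/6 mice, all of which received repeated intraperitoneal carbon tetrachloride (CCl4), a hepatotoxin used to produce fibrosis. The 6 mice of the water group were given double distilled water by the intragastric route, and the 6 of the PZH group received daily Pien Tze Huang, a traditional Chinese medicine abbreviated PZH in the labels, by the same route. The labels used here state no age, sex or dose, and no group without CCl4 was analysed, so every comparison is between injured livers. The labels do not state outright that each library came from a different mouse, which the wording here assumes, and p-values measure only the spread between these libraries, which may be technical.

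In a miRNA, bases 2 to 8 from the 5′ end form the seed, which pairs with target messages and largely decides which messages are repressed. Each hairpin of the cluster gives a 5p and a 3p arm, of which 1 is usually kept in the silencing complex and the other mostly degraded. The cluster is induced by MYC and E2F factors, promotes growth and survival of dividing cells, and is essential in lung, heart and B cell development. Its best known targets include the pro-apoptotic Bim and the cell cycle inhibitor p21, and members of the TGF-beta pathway, which drives stellate cells to make matrix in fibrotic liver. Messenger RNA was not analysed here, so neither the host transcript nor any target is measured.

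The 6 hairpins lie in 836 bases on the plus strand of mouse chromosome 14 (GRCm38), in the order Mir17, Mir18, Mir19a, Mir20a, Mir19b-1 and Mir92-1. Mir17 is at chr14:115043671-115043754 and Mir92-1, the last, at chr14:115044427-115044506. Neighbouring hairpins are 35 to 96 bases apart. All 6 lie within an exon of the non-coding host gene Mir17hg (chr14:115042879-115046727) in its 1 annotated transcript. The mature sequences, from RefSeq on GRCm38.p6, are shown with the seed in capitals because several members share it.
miR-17-5p: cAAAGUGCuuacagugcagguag
miR-20a-5p: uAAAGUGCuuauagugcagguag
miR-18a-5p: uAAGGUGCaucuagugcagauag
miR-19a-3p: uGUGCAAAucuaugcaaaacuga
miR-19b-3p: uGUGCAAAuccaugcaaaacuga
miR-92a-3p: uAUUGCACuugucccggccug
miR-17-3p: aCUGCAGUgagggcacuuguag
The members thus carry 5 seeds. The seed AAAGUGC is shared by miR-17-5p and miR-20a-5p, and GUGCAAA by miR-19a-3p and miR-19b-3p. Counted from 1 at the 5′ end, miR-20a-5p differs from miR-17-5p by C1U and C12U, and miR-19b-3p differs from miR-19a-3p by U11C alone. The assignment of reads that match several miRNAs is not given in the sources used here, so near-identical members may carry some of each other's reads.

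With PZH, both members with the AAAGUGC seed were higher. Levels of miR-17-5p and miR-20a-5p, which repress cell cycle inhibitors such as p21, rose 1.34-fold and 1.22-fold. The other 5 members, among them the abundant miR-92a-3p and miR-19b-3p, were not called by the quasi-likelihood test of edgeR at an adjusted p under 0.05. Thus 2 of 7 members were called higher and 0 lower, where 9.88% of all 607 tested miRNAs were called higher and 11.4% lower. Of the 5 members without a call, miR-18a-5p and miR-92a-3p had an unadjusted p under 0.05 (0.0116 and 0.0258). Here and below, this cut passes more miRNAs than the adjusted one. Its share over all tested miRNAs was not counted, so such counts have no background beside them and are descriptions only. Close to this cut, miR-30c-5p had an unadjusted edgeR p of 0.0485 and an adjusted p of 0.152. By DESeq2, 4 members were called higher and 0 lower, where 12.9% of tested miRNAs were called higher. The median log2 fold change was 0.22 over the 7 members and -0.03 over all tested miRNAs. Only 1 member was called higher without water replicate 1, 3 or 4 or PZH replicate 3 or 6, each left out alone, and also when rare miRNAs were left in the fit. The count was 3 without water replicate 6 or PZH replicate 2. It was 4 with RLE scaling, total-count scaling or a filter of 10 CPM in 6 libraries. In all of these, 0 members were lower. Over all tested miRNAs, 60 of 607 were called higher and 69 lower with all libraries. Without water replicate 1, 3 or 4, calls in either direction were 102 of 619, 109 of 637 and 99 of 630. Without PZH replicate 3 or 6 they were 108 of 633 and 110 of 639, and with rare miRNAs left in 104 of 1929. They were 107 of 634 without water replicate 6 and 115 of 634 without PZH replicate 2. RLE and total-count scaling called 72 and 68 of 607 miRNAs higher, and the filter called 59 of 344. With TMM scaling and the default filter, 60 of 607 were called higher. For RLE, total counts and the filter, the whole tested set had a log2 median of 0.007, 0.017 and 0.066, above -0.03. The median with the filter covers a different set of miRNAs, and the cause of the added member calls was not tested. Levels are given in CPM, counts scaled to a common library total by TMM.

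**Figure D1:**
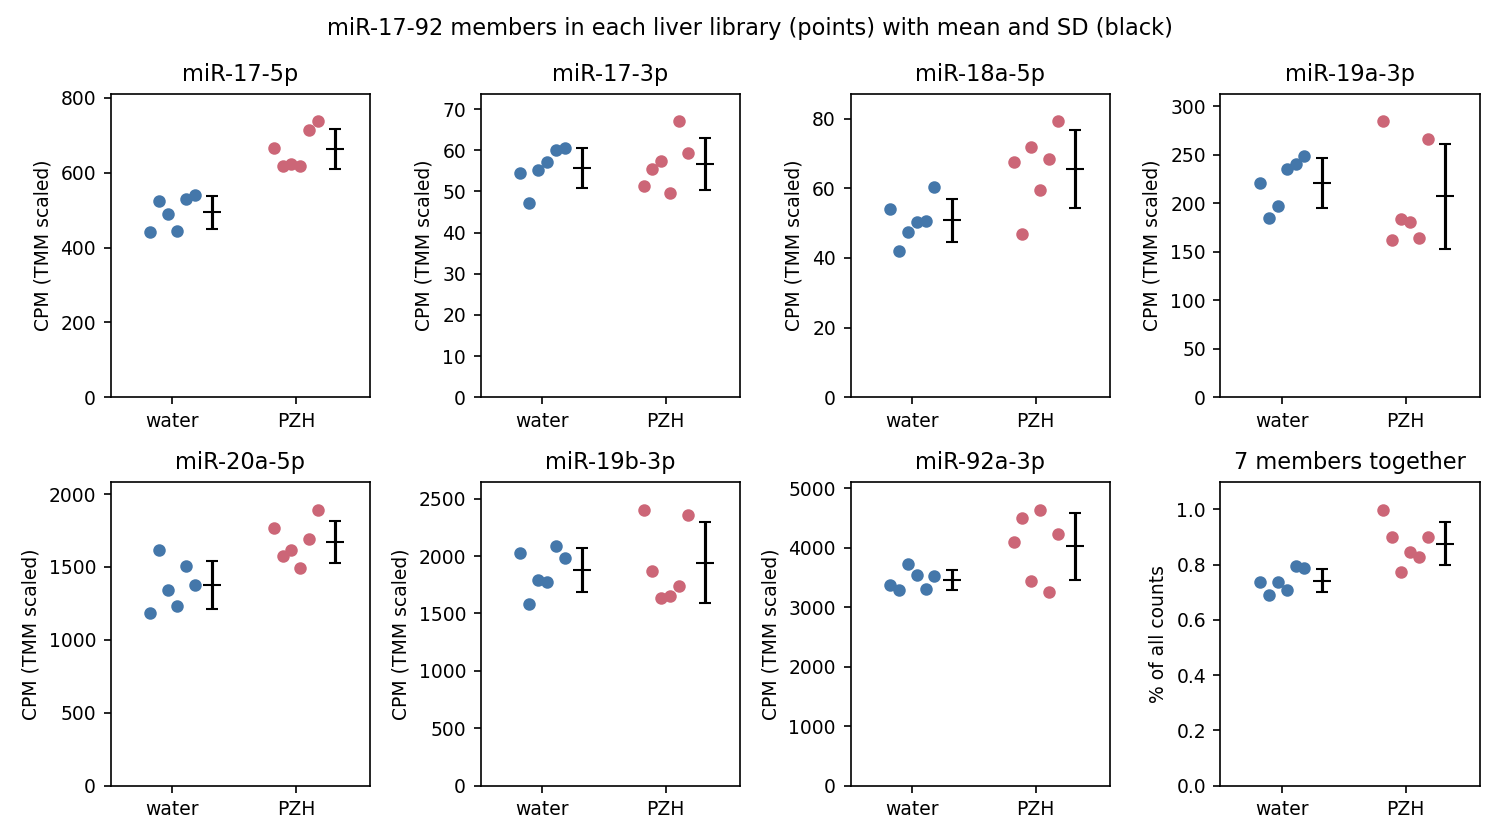
Level of each member in every library, in CPM after TMM scaling, and the percent of all counts held by the 7 members, for 6 water (blue) and 6 PZH (red) livers. Black marks are means with SD. The groups separate fully for miR-17-5p, with 617 CPM in the lowest PZH library and 539 in the highest water library, and overlap in the other panels.

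Among the members with the AAAGUGC seed, miR-17-5p is encoded first in the cluster. Its level was 441 CPM at lowest, 507 at the median and 539 at highest in the water group, and 617, 645 and 738 CPM in the PZH group. All 6 PZH livers lay above every water liver, a full separation upward that was found for 5.11% of tested miRNAs. The group means were 495 ± 43.9 and 663 ± 53.0 CPM (SD, n = 6). The difference was 0.42 on the log2 scale (SE 0.08, edgeR adjusted p = 0.00231). This call was kept under all 19 alternatives, with log2 fold changes of 0.39 to 0.51. In the water libraries, which spanned the whole range of depth, the level rested on 2700 to 10050 counts of miR-17-5p.

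The second member with this seed is miR-20a-5p, encoded by the fourth hairpin. It stood at 1183, 1362 and 1614 CPM (lowest, median and highest) with water and at 1495, 1654 and 1893 CPM with PZH. The groups overlapped, because water replicate 2 had 1614 CPM and water replicate 5 had 1504 CPM, while 4 of 6 PZH livers lay above every water liver. The means were 1376 ± 162 and 1673 ± 143 CPM (SD, n = 6), a log2 difference of 0.28 (SE 0.09, edgeR adjusted p = 0.0335). This call ended when water replicate 1, 3 or 4 or PZH replicate 3, 5 or 6 was left out, with log2 fold changes between 0.24 and 0.30 and adjusted p between 0.0509 and 0.0949 in edgeR. Nor was it kept when rare miRNAs were left in the fit (edgeR adjusted p = 0.0660).

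The related seed AAGGUGC is carried by miR-18a-5p, from the second hairpin. Its level was 41.9, 50.4 and 60.5 CPM (lowest, median and highest) with water and 46.8, 68.1 and 79.3 CPM with PZH. PZH replicates 2 and 4 lay inside the water range, replicate 2 with the lowest value of its group, while 4 of 6 PZH livers were above every water liver. The means of 50.8 ± 6.24 and 65.6 ± 11.2 CPM (SD, n = 6) differed by 0.37 on the log2 scale, with no call (SE 0.13, edgeR adjusted p = 0.0535). It was called in 7 of 19 alternatives, among them DESeq2 (adjusted p = 0.0135), RLE scaling (0.0377) and the fit without PZH replicate 2 (0.0105).

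Both miR-19 members, the ones to which the growth-promoting effect of the cluster in lymphoma has been traced, showed no call. For miR-19b-3p the lowest, median and highest levels were 1582, 1889 and 2090 CPM with water and 1632, 1803 and 2405 CPM with PZH. For miR-19a-3p they were 185, 228 and 249 CPM with water and 162, 182 and 285 CPM with PZH. In both cases PZH replicates 1 and 6 lay above every water liver. The other 4 PZH livers lay within the water range for miR-19b-3p and below every water liver for miR-19a-3p. The log2 fold change was 0.05 for miR-19b-3p (SE 0.11, edgeR adjusted p = 0.861) and -0.09 for miR-19a-3p (SE 0.15, adjusted p = 0.778). Across the alternatives miR-19b-3p took values of -0.02 to 0.14, so its direction was not fixed, and miR-19a-3p took -0.21 to -0.01.

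The most abundant member was miR-92a-3p, which is known to restrain vessel growth in endothelial cells. Its level was 3282, 3443 and 3731 CPM (lowest, median and highest) with water and 3248, 4158 and 4638 CPM with PZH. PZH replicate 3 stood within the water range and PZH replicate 5 below it, and the other 4 lay above every water liver. The means were 3458 ± 171 and 4023 ± 563 CPM (SD, n = 6), with a log2 difference of 0.22 and no call (SE 0.09, edgeR adjusted p = 0.0956). It was called in 5 of 19 alternatives, among them total-count scaling (adjusted p = 0.0323), DESeq2 (0.0384) and the fit without PZH replicate 5 (0.0254).

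The passenger arm miR-17-3p stood at 47.1, 56.1 and 60.5 CPM (lowest, median and highest) with water and 49.5, 56.5 and 67.1 CPM with PZH. The groups overlapped almost completely, and its log2 fold change was 0.03 (SE 0.10, edgeR adjusted p = 0.906; -0.02 to 0.11 over the alternatives, negative in 2 of 19).

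The 7 members together held 0.742% ± 0.0413 of all counts in the water group and 0.875% ± 0.0771 in the PZH group (SD, n = 6), a description with no test. Water livers ranged from 0.691% to 0.794% and PZH livers from 0.775% to 0.999%, with PZH replicate 3 alone inside the water range. Mature members are 21 to 23 bases long, so levels are compared per molecule of nearly equal length, although ligation in library preparation can favour some sequences. The order of levels in CPM was the same for the means of both groups down to miR-19a-3p, namely miR-92a-3p, miR-19b-3p, miR-20a-5p, miR-17-5p and miR-19a-3p. Of these neighbours, only miR-19b-3p and miR-20a-5p overlapped in their ranges. The least abundant pair, miR-18a-5p and miR-17-3p, overlapped in both groups. Of the cluster's counts, miR-92a-3p made up 45.9% ± 2.30 with water and 46.6% ± 4.49 with PZH (SD, n = 6), and miR-17-5p 6.56% ± 0.491 and 7.73% ± 0.880.

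Whether members moved unequally was tested on their counts relative to miR-92a-3p in the same library, which needs no scaling. On this measure the median log2 difference of all tested miRNAs was -0.25. For miR-17-5p there were 12.5, 14.2 and 16.0 counts per 100 of miR-92a-3p (lowest, median and highest) with water and 13.3, 16.9 and 22.0 with PZH. The groups overlapped, with 4 of 6 PZH livers above every water liver. The log2 difference was 0.22, with a 95% interval of -0.09 to 0.53 (limma adjusted p = 0.295). At the other end, miR-19a-3p went from 6.41 ± 0.795 to 5.20 ± 1.31 counts per 100 of miR-92a-3p (SD, n = 6; log2 difference -0.33, interval -0.71 to 0.04, limma adjusted p = 0.182). No member was called against miR-92a-3p, where 23.3% of the 606 other tested miRNAs were, and at an unadjusted p under 0.05 the count was 0 of 6 as well. Set against miR-19b-3p instead, a reference chosen after the values were seen, miR-17-5p had a log2 difference of 0.38 (interval 0.06 to 0.71, limma adjusted p = 0.132). Against that reference 11.2% of the other tested miRNAs were called, so the share called depends on the reference. By edgeR, the log2 fold change was 0.22 for miR-92a-3p itself and 0.05 for miR-19b-3p. The fold changes of the members therefore differed in size, but no member was called against miR-92a-3p, nor miR-17-5p against miR-19b-3p. Before adjustment, the interval of miR-17-5p against miR-19b-3p excluded 0. The intervals given do not exclude differences as large as the fold changes themselves.

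**Figure D2:**
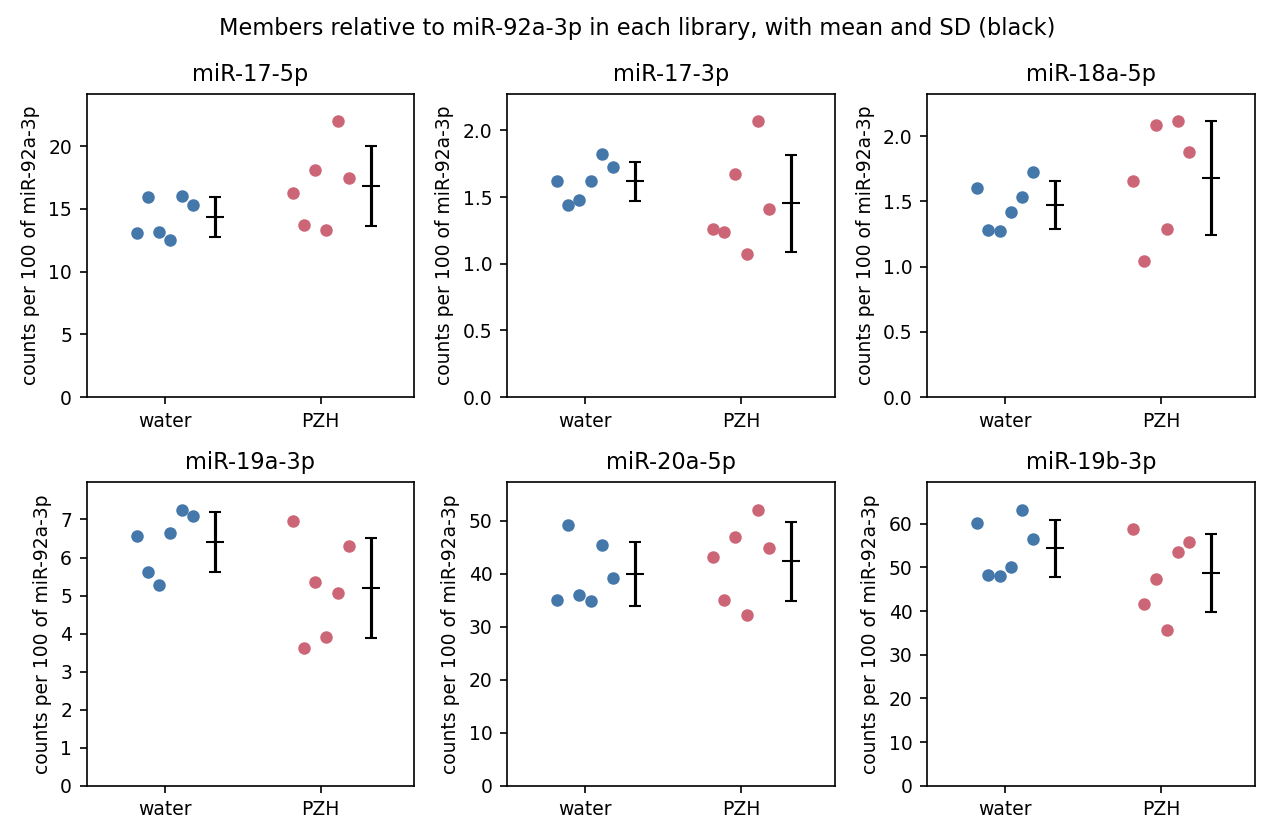
Counts of 6 members per 100 counts of miR-92a-3p in each library, for water (blue) and PZH (red), with mean and SD in black. The groups overlap in every panel. For miR-17-5p the median went from 14.2 to 16.9, and for miR-19a-3p the mean went from 6.41 to 5.20.

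Against its own partner arm, by contrast, miR-17-5p gained. The hairpin Mir17 is shown with both arms in capitals, the 5p arm first, because these come from the same precursor molecule.
Mir17: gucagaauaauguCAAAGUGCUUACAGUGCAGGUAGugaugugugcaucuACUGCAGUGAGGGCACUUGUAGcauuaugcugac
The ratio of 5p to 3p counts was 7.75, 8.85 and 11.1 (lowest, median and highest) with water and 10.6, 11.8 and 13.0 with PZH. Water replicate 2, at 11.1, was the only water liver inside the PZH range. The mean ratio went from 8.92 ± 1.17 to 11.7 ± 0.992 (SD, n = 6; log2 difference 0.40, SE 0.11, limma adjusted p = 0.0355). Of all 136 hairpins tested, 7.35% were called toward the 5p arm. The call for miR-17 was lost without water replicate 1, 3, 4, 5 or 6 or PZH replicate 1, 4, 5 or 6, each left out alone, with limma adjusted p of 0.0528 to 0.0875 and log2 differences of 0.36 to 0.43.

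The last hairpin of the cluster showed the same direction in favour of its abundant arm, which there is the 3p arm. It is shown in the same way, the 5p arm miR-92a-1-5p first.
Mir92-1: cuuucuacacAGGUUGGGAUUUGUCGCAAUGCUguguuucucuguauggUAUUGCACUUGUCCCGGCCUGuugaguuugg
Counts of miR-92a-3p were taken per count of miR-92a-1-5p, with 1 added to each. The ratio was 566, 636 and 1056 (lowest, median and highest) with water and 849, 1215 and 2482 with PZH. The groups overlapped through water replicate 3, the highest water liver at 1056, and 3 of 6 PZH livers lay above it. On the log2 scale the 5p to 3p ratio fell by 0.88 (SE 0.24, limma adjusted p = 0.0355), and 2.94% of hairpins were called in this direction. Counts of miR-92a-3p include any from a second hairpin on chromosome X. The call ended without water replicate 1, 4, 5 or 6 or PZH replicate 1 or 6 (adjusted p 0.0503 to 0.0875). The 5p arm rested on 16 to 86 counts per library. Mean miR-92a-1-5p was 4.86 ± 0.976 CPM in water livers and lower, 3.04 ± 0.817 CPM, in PZH livers (SD, n = 6; edgeR log2 difference -0.67, adjusted p = 0.0480), a call lost in 14 of 18 alternatives (highest adjusted p 0.198).

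Of the cluster's other hairpins, 2 had both arms at a mean of at least 20 counts, the minimum for this test. For miR-18a the mean 5p to 3p ratio went from 21.8 ± 6.71 to 28.2 ± 7.16 (SD, n = 6; log2 difference 0.41, limma adjusted p = 0.324). Water replicate 5 was far from its group there, at 8.94, with 5.59 CPM of miR-18a-3p against at most 2.09 CPM in the other water livers. Without that library the log2 difference was 0.17. For miR-20a the mean ratio went from 63.8 ± 18.9 to 76.1 ± 8.99 (SD, n = 6; log2 difference 0.29, limma adjusted p = 0.273). Its highest value, 98.6, was in water replicate 2, and without that library the difference was 0.43 and was called (limma adjusted p = 0.0428). Thus the more abundant arm had the higher share with PZH in 4 of 4 hairpins, with 2 calls. Over all 136 hairpins the more abundant arm had the higher share in 58.8%, and in 8.09% this was called.

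**Figure D3:**
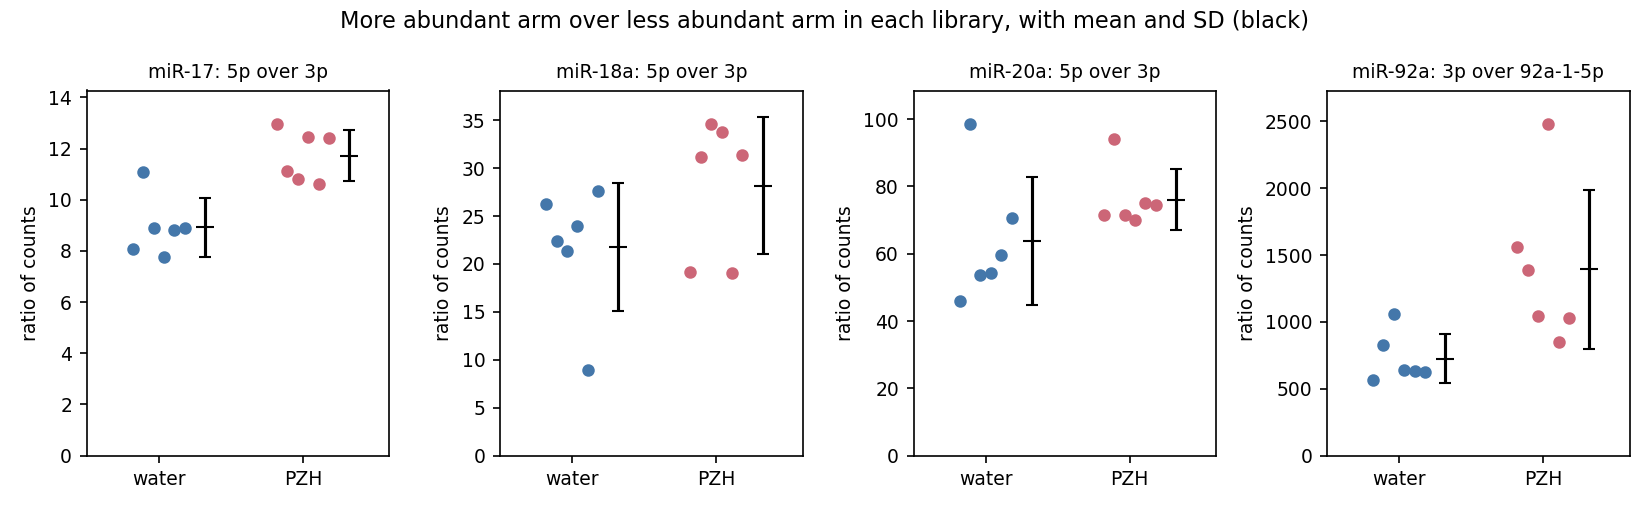
Counts of the more abundant arm per count of the less abundant arm in each library for 4 hairpins of the cluster, for water (blue) and PZH (red), with mean and SD in black. For miR-17 the medians are 8.85 and 11.8, with water replicate 2 (11.1) the only water library inside the PZH range.

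The remaining partner arms were rare. No call was made for miR-20a-3p (22.3 ± 3.76 and 22.1 ± 3.05 CPM) or miR-18a-3p (2.58 ± 1.48 and 2.39 ± 0.884 CPM; SD, n = 6; edgeR adjusted p = 0.944 and 0.879). Means of miR-19b-1-5p were 2.21 ± 0.704 and 1.33 ± 0.598 CPM in water and PZH livers (SD, n = 6; edgeR log2 difference -0.73, adjusted p = 0.148). The arm miR-19a-5p, with 13 counts over all 12 libraries, did not pass the filter.

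Mature miR-19b-3p and miR-92a-3p are also encoded, letter for letter, by Mir19b-2 and Mir92-2 of the miR-106a-363 paralog on chromosome X, so their counts cannot be split by locus. Their partner arms can be, because they differ in sequence. Over all 12 libraries miR-19b-1-5p of chromosome 14 had 218 counts and miR-19b-2-5p of chromosome X had 20. Likewise miR-92a-1-5p had 481 counts and miR-92a-2-5p had 27. Other products of the X cluster were scarce, with means of 2.89 CPM for miR-106a-5p, which differs from miR-17-5p by U10A, and 6.34 CPM for miR-20b-5p. Of its 10 arms in the table other than the shared ones, 3 were tested and 0 were called (log2 fold changes -0.76 to -0.03). Of all tested miRNAs 9.88% were called higher and 11.4% lower, so with 3 arms this count is near that share. At an unadjusted p under 0.05 there was 1, miR-363-3p (6.70 ± 2.66 and 3.92 ± 1.58 CPM; SD, n = 6; edgeR adjusted p = 0.121), and DESeq2 called none of the 3.

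The miR-106b-25 paralog, which lies on chromosome 5 and is hosted by the replication gene Mcm7, carries the AAAGUGC seed in miR-93-5p and miR-106b-5p and the AUUGCAC seed of miR-92a-3p in miR-25-3p. The sequences with the AAAGUGC seed are shown for comparison with miR-17-5p and miR-20a-5p above.
miR-93-5p: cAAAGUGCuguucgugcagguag
miR-106b-5p: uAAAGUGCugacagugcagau
Of its 6 tested arms 1 was called higher and 0 lower, where 9.88% of all tested miRNAs were called higher and 11.4% lower (median log2 fold change 0.14, against -0.03 over all), so the count is near that share. That arm, miR-93-5p, stood at 1274, 1422 and 1484 CPM (lowest, median and highest) with water and 1510, 1847 and 1910 CPM with PZH. Its groups did not overlap, a full separation upward found for 5.11% of tested miRNAs (edgeR log2 difference 0.35, adjusted p = 0.00324). From the neighbouring hairpin, miR-106b-5p had 206 ± 24.3 and 225 ± 36.7 CPM (SD, n = 6; edgeR log2 difference 0.13, adjusted p = 0.523). For miR-25-3p the means were 1160 ± 52.9 and 1151 ± 96.8 CPM (SD, n = 6; edgeR log2 difference -0.01, adjusted p = 0.930).

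By seed across the table, 7 miRNAs carried AAAGUGC, of which 6 were tested and 3 called higher (miR-93-5p beside the 2 members; median log2 fold change 0.21), where 9.88% of all tested miRNAs were called higher. These 3 were also the AAAGUGC miRNAs with a mean above 500 CPM, while those without a call had means of 215 CPM (miR-106b-5p), 6.34 CPM (miR-20b-5p) and 2.89 CPM (miR-106a-5p). The AUUGCAC seed was carried by 6, of which 5 were tested and 0 called (median -0.23), where 9.88% of all were called higher and 11.4% lower. At an unadjusted p under 0.05 there were 1 higher and 2 lower, and DESeq2 called 1, miR-92a-3p. The log2 fold changes of the other 4 were negative, at -0.01 for miR-25-3p (positive in 9 of 19 alternatives) and lower for miR-32-5p (-0.23), miR-92b-3p (-0.64) and miR-363-3p (-0.76). Both tested GUGCAAA miRNAs were the miR-19 members. These counts cover the 1647 of 1929 names with a mature sequence in the RefSeq table.

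**Figure D4:**
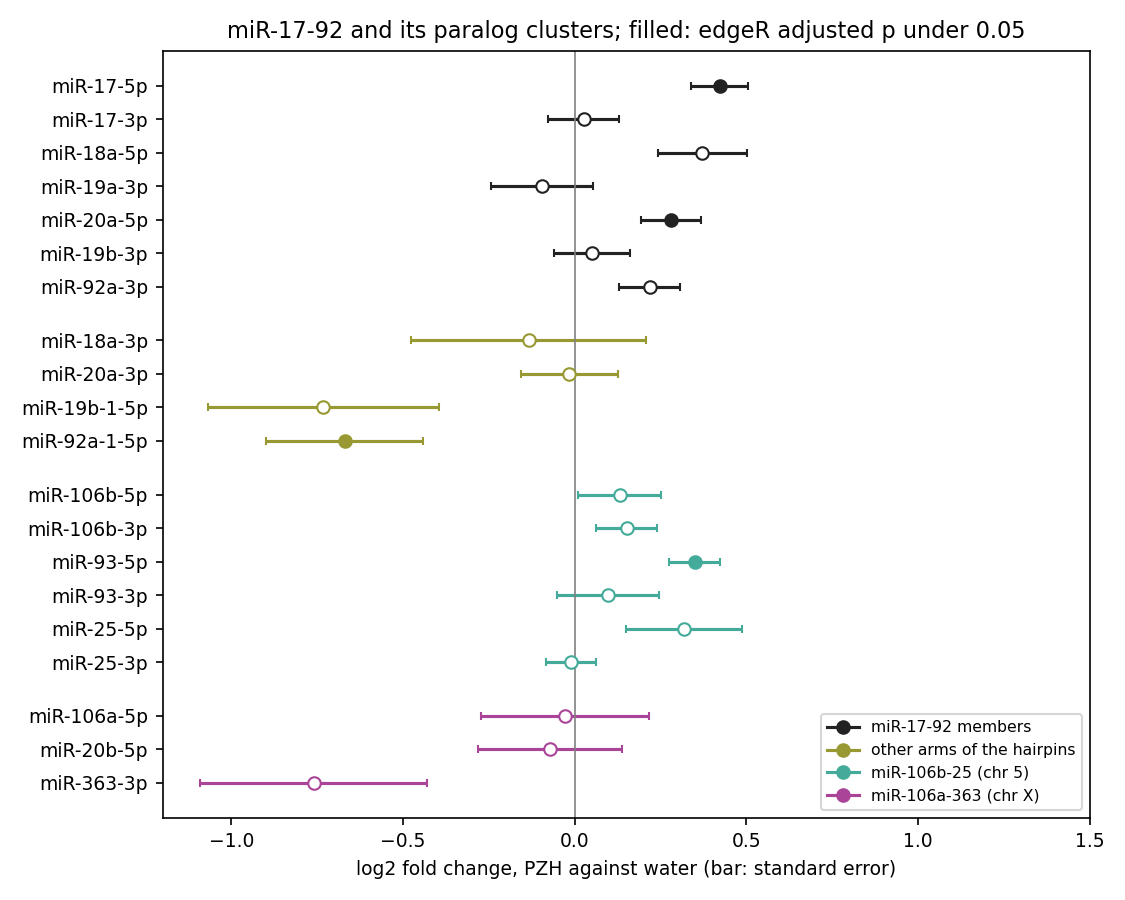
Log2 fold change of PZH against water with its standard error for the 7 members, the other tested arms of their hairpins and the tested arms of the paralog clusters; filled points are called by edgeR. Filled points above 0 are miR-17-5p (0.42), miR-20a-5p (0.28) and miR-93-5p (0.35), and miR-92a-1-5p (-0.67) is the only filled point below 0.

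Between livers of the same group, the members that varied most alike were those sharing a seed. After each miRNA was centred on its group means, the log2 CPM of miR-17-5p and miR-20a-5p correlated with r = 0.85 over 12 libraries, and that of miR-19a-3p and miR-19b-3p with r = 0.86. The next highest value among the 21 pairs was 0.63, for miR-18a-5p and miR-19a-3p. The arms of 1 hairpin, miR-17-5p and miR-17-3p, had r = 0.35. The most abundant member, miR-92a-3p, had r between -0.48 (with miR-17-3p) and 0.22 (with miR-19b-3p). These values are descriptions. The points share a library, its scaling and any shared reads, and the members of the 2 strongest pairs are nearly identical in sequence.

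**Figure D5:**
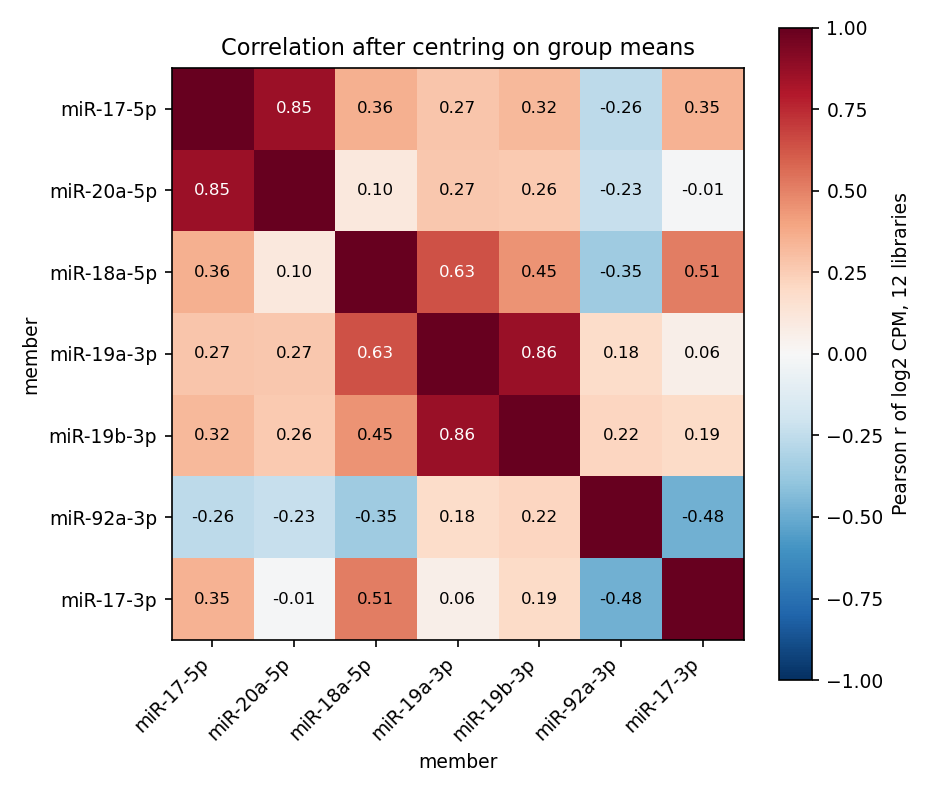
Pearson correlation of log2 CPM between members over 12 libraries, after centring each on its group means. The darkest cells are miR-17-5p with miR-20a-5p (0.85) and miR-19a-3p with miR-19b-3p (0.86), and 4 of the 6 values of miR-92a-3p are negative.

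Likeness was also ranked over the 342 tested miRNAs whose mean level reached 10 CPM. Of the 341 others, miR-20a-5p was the most like miR-17-5p, followed by miR-6390 (r = 0.76) and miR-1981-3p (0.72). The miRNA most like miR-20a-5p was miR-103-3p (r = 0.91), ahead of miR-17-5p. For miR-18a-5p the leading miRNAs were miR-301a-3p (0.91), miR-32-5p (0.86) and miR-15a-5p (0.85). For miR-19a-3p, miR-221-5p came first (0.87), then miR-19b-3p, then miR-186-5p (0.80). The order for miR-19b-3p was miR-19a-3p, miR-302d-3p (0.85) and miR-221-5p (0.75). The miRNAs most like miR-92a-3p were miR-148b-3p (0.84), miR-486b-5p (0.82) and let-7f-5p (0.81), and its best-placed cluster partner, miR-19b-3p, was number 121 of 341. For miR-17-3p they were miR-10a-3p (0.75), miR-142a-3p (0.74) and miR-181c-5p (0.74). Median r over all 341 lay between -0.02 and 0.08 for the 7 members.

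MYC, which induces the cluster, is known to repress a broad set of other miRNAs. Of 23 such miRNAs, all tested, 0 were called higher and 5 lower by edgeR, where 11.4% of all tested miRNAs were called lower. At an unadjusted p under 0.05 there were 0 higher and 7 lower, with no share over all tested miRNAs to set beside them. DESeq2 called 0 higher and 5 lower. Of all 607 tested miRNAs it called 144 in either direction, 78 of them higher. The count called lower was 1 (miR-29c-3p) without water replicate 4, and 2 without PZH replicate 2 or 5 or with rare miRNAs left in. It was 3 without water replicate 1 or 6 or PZH replicate 1 or with RLE or total-count scaling. Left out alone, water replicate 5 gave 4, and water replicate 2 gave 7, with miR-22-3p and miR-30b-5p added. Over all tested miRNAs, 102 of 619, 139 of 623 and 99 of 630 were called either way without water replicate 1, 2 and 4. Without water replicate 5 and 6 these calls were 112 of 617 and 107 of 634. Without PZH replicate 1, 2 and 5 they were 118 of 635, 115 of 634 and 99 of 633. The 10 CPM filter gave 3 lower and 2 higher (let-7f-5p and miR-23a-3p). Of all 344 miRNAs it tested, this filter called 94 in either direction, 35 of them lower. Calls over all tested miRNAs were 131 of 607 with RLE, 127 of 607 with total-count scaling and 104 of 1929 with rare miRNAs left in. The 5 of the fit with all libraries were miR-29a-3p (-0.21), miR-29b-3p (-0.32) and miR-29c-3p (-0.40), which repress collagen messages, miR-30e-5p (-0.28), and miR-146a-5p (-0.47), which dampens inflammatory signalling. The median log2 fold change of the 23 was -0.04, near the -0.03 of all tested miRNAs, and 10 were positive. Among those without a call were let-7a-5p (0.14), miR-34a-5p (0.14), miR-26a-5p (-0.06) and miR-195a-5p (0.00). The level of MYC itself was not analysed here.

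Liver tissue holds many cell types, and in bulk RNA fewer cells of a type and less of a miRNA per cell cannot be told apart. The defining hepatocyte product, miR-122-5p, was abundant in both groups (104137 ± 8000 and 107905 ± 13911 CPM in water and PZH livers; SD, n = 6). Some markers of other cell types were lower with PZH while miR-17-5p and miR-20a-5p were higher, where 11.4% of all tested miRNAs were called lower. Of the 2 endothelial miRNAs, summed at 12863 to 17096 CPM with water and 10272 to 13900 CPM with PZH, miR-126a-3p fell (log2 fold change -0.36, edgeR adjusted p = 0.00281), and this call was kept under the 19 alternatives. For miR-126a-5p (-0.33, adjusted p = 0.0445) the call was lost with DESeq2 (adjusted p = 0.0612) and with the other alternatives except the fits that left out PZH replicate 4, PZH replicate 6 or water replicate 2. Of 5 leukocyte miRNAs 1 fell, miR-223-3p (-0.58, edgeR adjusted p = 0.00583; list summed 4147 to 5972 and 3091 to 5513 CPM), and 3 were lower at an unadjusted p under 0.05. The count called lower was 2 without water replicate 2 and 3 without PZH replicate 3. In those fits 139 of 623 and 108 of 633 tested miRNAs were called in either direction. Of 5 epithelial and biliary miRNAs edgeR called 2 lower, miR-200c-3p (-0.97) and miR-141-3p (-0.87). Water replicate 2 stood apart in this list, with a sum of 2192 CPM against 931 to 1151 CPM in the other water livers and 864 to 1246 CPM with PZH. Without it the log2 fold changes were -0.53 for miR-200c-3p (edgeR adjusted p = 0.0390) and -0.48 for miR-141-3p, which was then not called (0.0831). Neither was called without PZH replicate 1, 2, 3 or 5, each left out alone, or with limma-voom, and 1 was without water replicate 4, 5 or 6 or PZH replicate 6. Over all tested miRNAs, calls without PZH replicate 1, 2, 3 and 5 were 118 of 635, 115 of 634, 108 of 633 and 99 of 633. They were 121 of 607 with limma-voom. Without water replicate 4, 5 and 6 and PZH replicate 6 they were 99 of 630, 112 of 617, 107 of 634 and 110 of 639. No hepatocyte marker of 5 (summed 218970 to 253605 and 201511 to 261965 CPM), mesenchymal marker of 5 (summed 60493 to 87992 and 50274 to 87846 CPM) or erythroid marker of 4 tested (summed 3040 to 4920 and 2538 to 4735 CPM) was called by edgeR or by DESeq2. Left out alone, PZH replicate 6 gave 2 lower hepatocyte calls (miR-192-5p and miR-194-5p) and water replicate 2 gave 1 erythroid call (miR-451a, lower), and the 10 CPM filter gave 1 mesenchymal call (miR-145a-5p, higher). In the fit with all libraries, at an unadjusted p under 0.05 there were 0 hepatocyte, 1 mesenchymal (higher) and 1 erythroid (lower) markers. The part of these in the members' levels was not tested. No marker was at 0 in all libraries. Total counts ranged from 4961913 to 20211784 per library, and every member had at least 303 counts in every library.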

How the data were processed

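Per the labels, liver small RNA was isolated with Trizol, and the TruSeq Small RNA kit was used for the libraries. The submitters' processing notes name cutadapt, FastQC, BWA, DESeq2 and GRCm38, without versions or roles. The authors deposited raw counts per mature miRNA, not normalized, 1 column per library (6 per group). How reads were counted, against which miRNA release, and with what treatment of strand and multiple matches is not given in the sources used here. The value 1 does not occur in the table. The reads carry no molecular identifiers.

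Counts were compared with edgeR 4.0.16 in R 4.3.3 (quasi-likelihood test, TMM scaling, default low-count filter) over all tested miRNAs, with Benjamini-Hochberg adjustment and a threshold of 0.05. CPM are after TMM scaling. SEs were derived from the edgeR statistic. Arm ratios and levels relative to miR-92a-3p or miR-19b-3p were compared with limma 3.58.1 on log2 count ratios with a pseudocount of 1, adjusted over all hairpins or miRNAs. Arms were paired through the RefSeq hairpins. Correlations used log2 CPM with a prior count of 2. No 2 libraries of a group were alike within counting noise. The fits were tested on simulated counts, with each miRNA drawn independently and its spread taken from these data. That test therefore does not cover variation shared by the arms of a hairpin or by members.

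The rule named the members, their partner arms, miRNAs sharing a member's seed, the arms of both paralog clusters, the 3 miRNAs most like each member, cell type markers and MYC-repressed miRNAs. Members and lists were chosen with earlier results of these data known. Alternatives were DESeq2 1.42.0, limma-voom, scaling by RLE or by total counts, a stricter filter (10 CPM in 6 libraries) or none, a replicate block, a pseudocount of 5, an arm minimum of 100 counts, and each library left out. Applying these to the marker and MYC lists was added after seeing the data.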

Additional observations from a re-analysis of the deposited data

Results flagged for a closer look

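In groups of 6, 62 sets of values of the members, their partner arms and paralogs were examined for 1 library far from the rest, of which chance would single out about 1 in 20, and 3 were found. The level of miR-18a-3p was 5.59 CPM in water replicate 5, against at most 2.09 CPM in the other water livers. The ratio of miR-18a-3p to miR-18a-5p was accordingly 0.112 in that library and at most 0.0468 in the other water livers. The ratio of miR-20a-3p to miR-20a-5p was 0.0106 in PZH replicate 2, and at least 0.0133 in the other PZH livers.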

How the results depend on the processing

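Under 19 alternatives the call of miR-17-5p was kept, and no member was called in the opposite direction. The count of miRNAs called lower was 69 of 607, with 60 called higher. With a filter of 10 CPM in 6 libraries, 94 of 344 were called in either direction, 35 of them lower. For miR-20a-5p the log2 fold change was 0.31 with no filter, with the call ended, and 0.24 to 0.33 with 1 library left out. For miR-18a-5p, not called, the values with a call were 0.41 with RLE scaling, 0.41 with total counts, 0.46 with the 10 CPM filter and 0.41 with DESeq2, and with 1 library left out the range was 0.31 to 0.47. For miR-92a-3p they were 0.25 with RLE scaling, 0.26 with total counts, 0.31 with the 10 CPM filter and 0.25 with DESeq2, and 0.16 to 0.29 with 1 library left out. The cause of these changes was not tested. Without a filter the median of all miRNAs moved from -0.03 to -0.16. With RLE scaling, total counts and the 10 CPM filter it was 0.007, 0.017 and 0.066. With 1 library left out, the arm ratio difference was 0.36 to 0.47 for miR-17, -1.004 to -0.69 for miR-92a-1, 0.21 to 0.43 for miR-20a and 0.17 to 0.52 for miR-18a. An arm minimum of 100 counts left no value for miR-18a and miR-92a-1.

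Both groups use the replicate numbers 1 to 6, with no statement that a number pairs mice. Same-numbered libraries had correlations of -0.15 to 0.08 after centring on group means, and 1 of 6 water libraries correlated best with its own number. With the replicate number as a block, miR-20a-5p was not called (0.29), miR-18a-5p was (0.36, edgeR adjusted p = 0.0390), and the arm ratio differences of miR-17 (0.40, limma adjusted p = 0.0903) and miR-92a-1 (-0.88, 0.0580) were not. Depth limits the rare partner arms most, which had 13 to 481 counts over all 12 libraries outside miR-20a-3p.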
